A study of Mus musculus with 8 samples.

Results

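Chromatin accessibility was examined at 9 genes that encode RNA-binding regulators of male germ cells, namely Dazl, Boll, Dnd1, Lin28b, Pum2, Cpeb1, Ythdc2, Elavl1 and Celf1. They are 9 of the 21490 genes that the deposited peak table assigns to at least 1 peak. A peak was taken as belonging to a gene where the table's list of genes for that peak held its symbol exactly, which gave 172 of 328733 peaks. The cells were PIWIL2-eGFP positive cells sorted from mouse testis and assayed by ATAC-seq, in which a transposase cuts and tags open DNA. All mice, those at 0 h included, carried the PIWIL2-eGFP transgene and received WIN 18,446, an inhibitor of retinoic acid (RA) synthesis, for 7 days from 2 days postpartum (dpp). The 0 h mice were then collected at 9 dpp without RA, and the others were collected 18, 48 or 120 h after an RA injection at 9 dpp. Each timepoint had 2 libraries, each from the testes of 1 mouse, and the labels give the strain as C57BL/6 x 129s4/SvJae, whereas the methods give C57BL/6 x SJL. The timepoints stand for the A undifferentiated, A1/A2, A3 and B spermatogonia of the study.

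Spermatogonia pass from self-renewing cells to meiotic entry with many transcripts that are stored, silenced or translated later, and RNA-binding proteins decide much of that timing. DAZ family proteins and CPEB proteins promote translation or polyadenylation of bound transcripts, PUMILIO and NANOS partners repress them, and DND1 protects germ cell identity. LIN28 proteins block maturation of let-7 microRNAs, YTHDC2 acts with MEIOC in the switch from mitosis to meiosis, and ELAV and CELF proteins set splicing and decay through AU-rich or GU-rich elements.

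The 8 libraries held between 24643 and 72215 peaks, with the highest numbers in the 0 h libraries. Peak height is the coverage at the summit after the authors brought all libraries down to one tag number, and the lowest summit in a library was 24 or 25, so a region with no peak has an unknown height below that limit. The depth behind a single peak is unknown, as read counts were not used here. Overlapping peaks of all libraries were merged into 87144 regions, and a region or gene was counted as accessible at a timepoint when both libraries had a peak. In bulk cells, fewer cells with an open site and less cutting per open site cannot be told apart. All 6 germ cell markers and all 5 markers of differentiating spermatogonia had a peak within 1000 bp of their start in all 8 libraries. Of 6 markers of undifferentiated spermatogonia 3 had one in all 8 (Zbtb16, Id4 and Ret), and Nanos2 had none in any library. Of somatic markers, 1 of 6 Sertoli genes (Wt1), 1 of 4 peritubular genes (Acta2), 1 of 4 endothelial genes (Kdr) and 0 of 4 macrophage genes had such a peak in all 8, and none of 5 Leydig genes had one in any library. The summed height of the Sertoli genes' start peaks was 531 and 698 at 0 h and between 105 and 246 later, that of the peritubular genes 445 and 511 at 0 h and 86 to 276 later, that of the endothelial genes 185 and 266 at 0 h and 38 to 94 later, and that of the macrophage genes 208 and 166 at 0 h and 0 later. The sum was also lower later for the germ cell markers, from 2788 and 3380 to between 1043 and 2353, and for the undifferentiated markers, from 1060 and 1229 to between 248 and 593, while the differentiating markers had 763 and 1049 before RA and 502 to 839 after it. The part of other cell types in the results below was not tested.

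The 172 peaks of the 9 genes fell in 38 regions, of which 25 were accessible at 1 or more timepoints and 13 at none, 10 of these in a single library. Regions are named by gene and by the distance in bp of the highest summit from the gene start used in the table, with a plus sign for downstream. The commonest class was accessibility at all 4 timepoints, with 11 regions, against 25.3% of the 61310 accessible regions of the series. These 11 had a peak in all 8 libraries, and all 11 contained a CpG island, whereas none of the 27 regions without a CpG island was accessible at all 4 timepoints. In the series a CpG island was held by 58.6% of regions with a peak in all 8 libraries and by 18.1% of all regions, and 9.02% of the regions without one had a peak in all 8. The 11 comprised the start regions of 8 of the genes and 3 regions at starts of neighbours that the table also lists under a member, among them Wdr55 for Dnd1 and Timm44 for Elavl1. The second class was accessibility at 0 h alone, with 9 regions, against 49.8% of accessible regions in the series. It held Dazl +17183, Lin28b -3111, Lin28b +19401, Lin28b +84073, Cpeb1 -9562, Cpeb1 +49894, Cpeb1 +62694, Ythdc2 -5273 and Celf1 +41363, with summits of 42 to 97 at 0 h. Of these 9, 6 had no peak in any later library. Accessibility at 120 h alone was seen in 2 regions, Lin28b +2233 and Pum2 +1322, against 2.49% of accessible regions in the series. The other 3, all in Celf1, were accessible at 2 or 3 timepoints. By the table's assignment of genes, Lin28b was the 1 gene of the 9 without accessibility at all 4 timepoints, since it had peaks in both libraries at 0 h and 120 h only, whereas 72.8% of genes accessible at any timepoint were accessible at all 4.

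**Figure D1:**
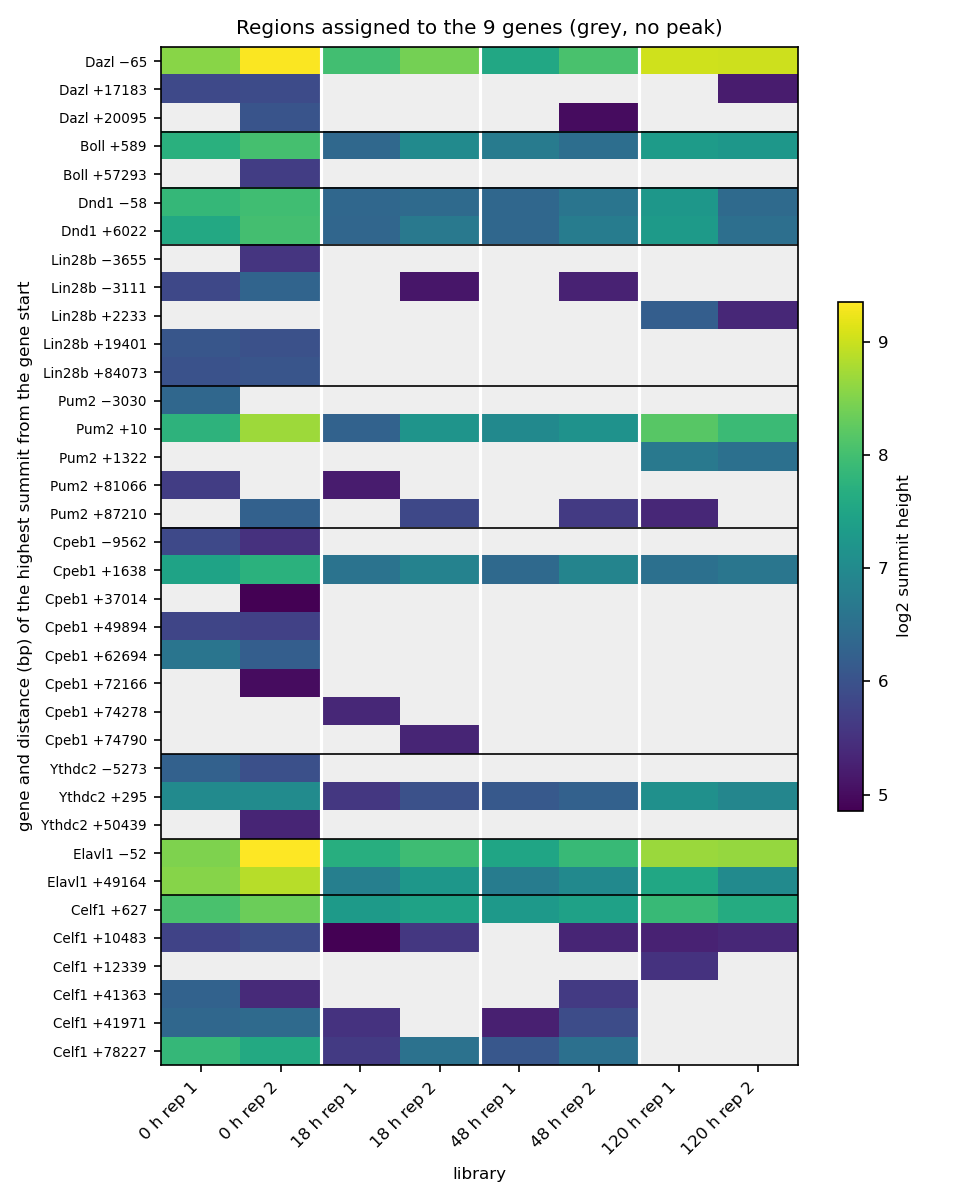
Log2 summit height of 36 of the 38 regions assigned to the 9 genes (rows, named by gene and distance of the highest summit from the gene start in bp) in each of the 8 libraries (columns), with grey where a library had no peak. Rows filled across all 8 columns are 10 start regions, and 12 of the other 26 rows are filled at 0 h and in no later library.

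Heights were compared with limma in the 15536 regions where every library had a peak, with Benjamini-Hochberg adjustment over all of them. As deposited, 10 of the 11 regions were lower at 18 h than at 0 h and 11 of 11 at 48 h. The same held for most regions of the series, 92.3% at 18 h and 93.3% at 48 h, so the share among the 11 is near the background. At 120 h, 4 of 11 were lower than at 0 h, against 44.8% of all regions. No region of the 11 differed between 48 h and 18 h in limma, where 0 also had an unadjusted p under 0.05, and the share of all regions past the threshold was 0.00644% downward and 0% upward. From 48 h to 120 h, 3 of 11 rose, Dazl, Pum2 and Elavl1 at their starts, against 23.7% of all regions. Over this interval the median log2 change was 0.56 for all regions and 0.77 for start regions with a CpG island. Across all regions the median log2 change was -1.23 at 18 h, -1.36 at 48 h and -0.75 at 120 h relative to 0 h, and across the 11 it was -1.24, -1.23 and -0.45. Start regions with a CpG island had a median of -0.53 at 120 h relative to 0 h. The SE was 0.37 for every region in this fit, since limma estimated 1 spread shared by all regions. Several of these counts changed when 1 library was left out. Such a fit also had a larger SE. Without replicate 2 at 0 h, the SE of the 18 h change was 0.48 at Dazl and at Boll alike. The share of all regions past the threshold was not taken in these fits, so the changed counts cannot be called particular to the 11. The number of lower regions at 18 h was 5 without replicate 2 at 0 h and 4 without replicate 1 at 18 h, that at 48 h was 5 without replicate 2 at 0 h and 7 without replicate 1 at 48 h, and that at 120 h was 1 without replicate 2 at 0 h and 2 without replicate 2 at 120 h. The 3 higher regions from 48 h to 120 h became 0 without replicate 1 at 120 h or either 48 h library, 1 without either 0 h library, 2 without either 18 h library and 5 without replicate 2 at 120 h. Among single regions, leaving out 1 library raised the highest adjusted p of the 48 h change to 0.134 at Dazl, 0.16 at Pum2, 0.148 at Cpeb1, 0.124 at Ythdc2, 0.108 at Elavl1 and 0.157 at Celf1 in limma. For the 18 h change it rose to 0.0916 at Boll, 0.0511 at Pum2, 0.134 at Cpeb1, 0.0515 at Ythdc2, 0.177 at Elavl1 and 0.177 at Celf1. For the 120 h change at Cpeb1 it rose to 0.158, without replicate 2 at 0 h. For the rises from 48 h to 120 h it reached 0.264 at Dazl, 0.287 at Pum2 and 0.352 at Elavl1, each without replicate 1 at 48 h.

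**Figure D2:**
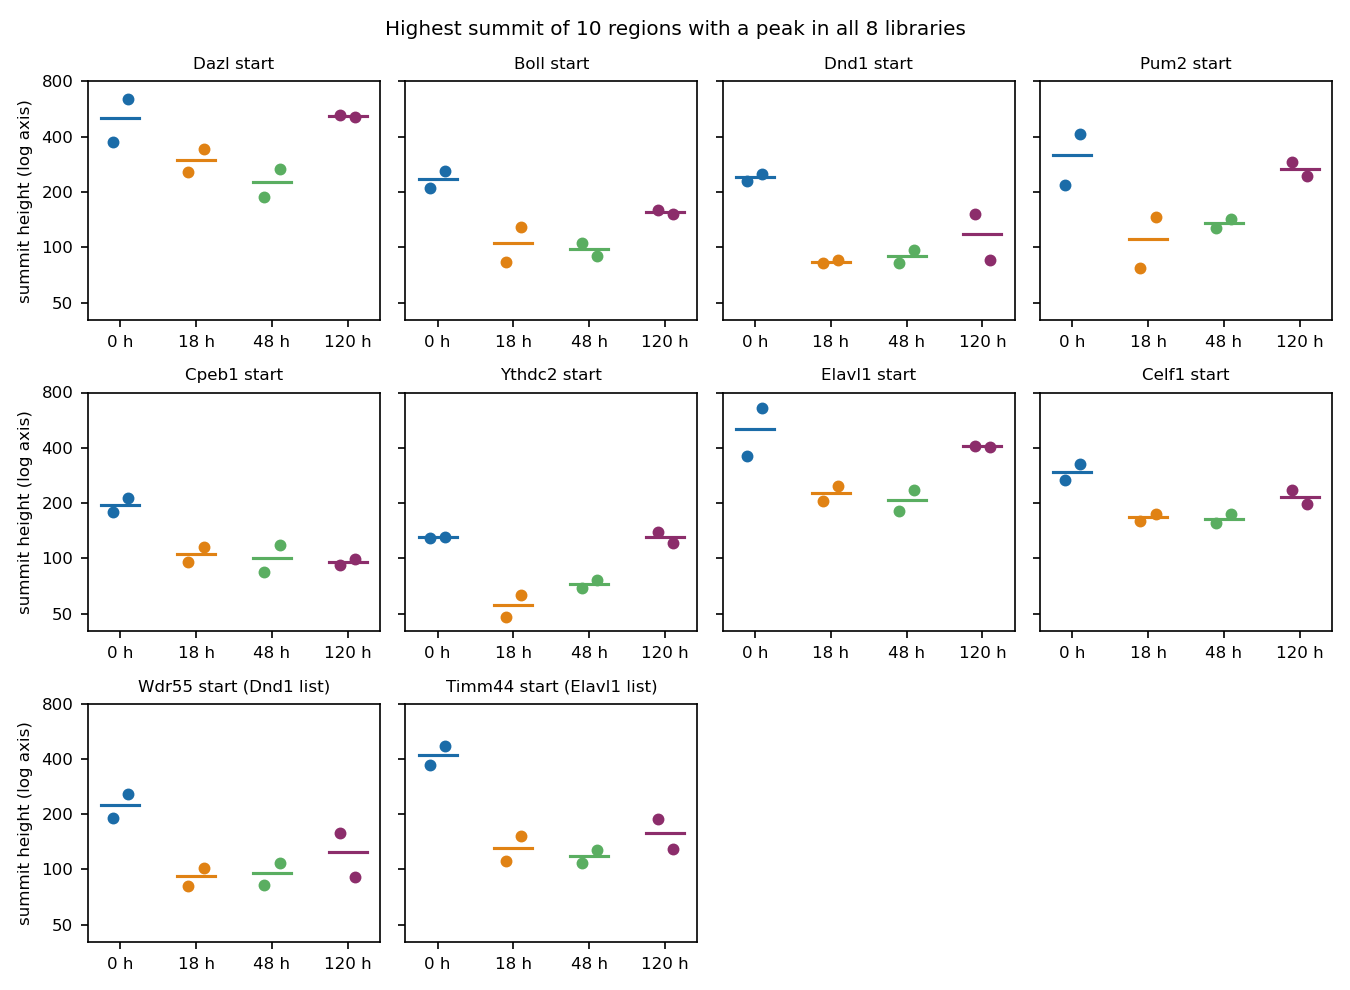
Summit height (log axis) of 10 of the 11 regions called in every library, plotted by hours after RA, with 1 point per library and a line at the mean of the 2 libraries. At the Dazl start the points sit at 376 and 642 at 0 h, between 188 and 343 at 18 and 48 h, and at 526 and 515 at 120 h, while at the Cpeb1 start the 120 h points of 92 and 99 stay near those of 18 and 48 h.

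Because the whole series shifted, the regions were also compared after each library was centred on its median log2 height, which gives the change relative to the median region. On this scale none of the 11 passed the threshold at 18 h or 48 h against 0 h, where 1 region had an unadjusted p under 0.05 at 18 h and 3 at 48 h. Of all regions, 0.225% were lower and 1.25% higher at 18 h on this scale, and 1.51% lower and 3.26% higher at 48 h. At 120 h against 0 h, 3 of 11 were higher, Dazl, Ythdc2 and Pum2, against 23% of all regions and 31.9% of 7954 start regions with a CpG island. The Timm44 region was lower, which makes 1 of 11 against 15.8% of all regions and 5.88% of the CpG island start regions. The member median at 120 h was 0.44 on the centred log2 scale, beside 0.14 for all regions and 0.36 for the CpG island start regions. From 48 h to 120 h none of the 11 passed the threshold on the centred scale. Before adjustment, 1 of the 11 was lower and 1 higher at a limma p under 0.05. Of all 15536 regions, 2507 were lower and 3288 higher by that unadjusted rule. The share of all regions past the adjusted threshold is not given for this interval. The centred changes in limma were 0.71 at Dazl (adjusted p = 0.0615), 0.48 at Pum2 (0.196) and 0.47 at Elavl1 (0.186). With quantile normalization in place of centring, 1 region was higher at 120 h than at 0 h, Ythdc2, and 1 was lower, Timm44. Without replicate 2 at 120 h none of the 3 centred rises remained past the threshold, without replicate 1 at 0 h 1 region was higher, and without any 1 of the 8 libraries the Timm44 call was lost.

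**Figure D3:**
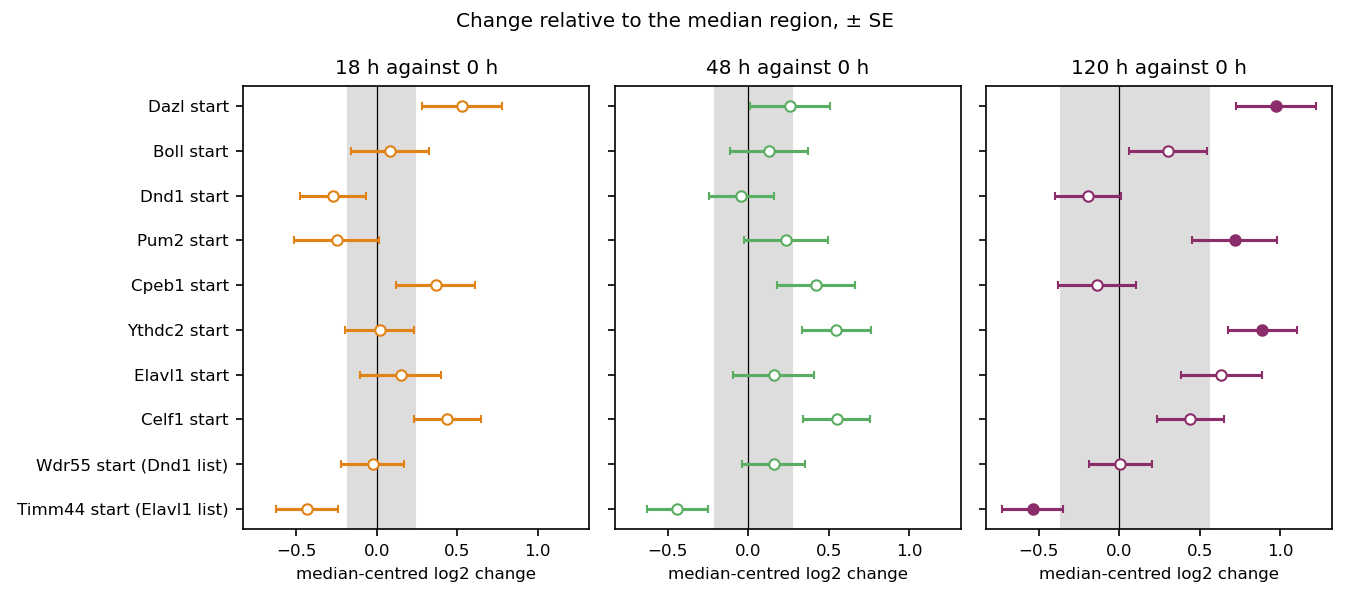
Median-centred log2 change of 10 of the 11 regions at 18, 48 and 120 h against 0 h, with the SE as bars, filled points past an adjusted p of 0.05, and a grey band from the first to the third quartile of all 15536 regions. At 120 h the filled points are Dazl at 0.97, Ythdc2 at 0.89, Pum2 at 0.72 and Timm44 at -0.54.

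Dazl, a DAZ family activator of translation that germ cells need for meiosis, had its start region at chr17:50292628-50293965, with the highest summit at -65 bp in 7 libraries and at -1 bp in the other. The 250 bases before the RefSeq start, in which the summit lies, are shown with CpG dinucleotides in capitals, since a peak in every library lay over them.
Dazl (chr17:50293621-50293870, minus strand, GRCm38.p6): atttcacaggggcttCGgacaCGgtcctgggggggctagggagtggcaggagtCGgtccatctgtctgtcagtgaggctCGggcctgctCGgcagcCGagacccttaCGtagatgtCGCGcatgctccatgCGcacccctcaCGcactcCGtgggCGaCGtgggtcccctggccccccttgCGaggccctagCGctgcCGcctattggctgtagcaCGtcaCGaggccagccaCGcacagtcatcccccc
They contain 20 CpG, beside a median of 6 in the same window before 32851 RefSeq starts, and 1 CCAAT box (CCAAT on either strand), which 33.8% of those windows contain. Heights were 376 and 642 (0 h), then 256 and 343 (18 h) and 188 and 268 (48 h), and lastly 526 and 515 (120 h). Both 48 h libraries lay below both 0 h libraries and the 120 h libraries lay between the 0 h ones, so no order of 0 h and 120 h can be read from the heights. As deposited, the log2 change was -0.73 at 18 h (SE 0.37, adjusted p = 0.0534, limma), -1.13 at 48 h (adjusted p = 0.00317) and 0.08 at 120 h (adjusted p = 0.871). From 48 h to 120 h it rose by 1.21 on the log2 scale, or 2.32-fold (SE 0.37, adjusted p = 0.0147, limma). Relative to the median region it was higher at 120 h than at 0 h by 0.97 (SE 0.25, adjusted p = 0.00924, limma), or 1.96-fold. That adjusted p was 0.101 without replicate 2 at 120 h, and the library at 0 h that set the lower value, replicate 1, decides the sign of the uncentred change, which was -0.30 without it. Downstream of the gene, Dazl +17183 had summits of 58 and 59 at 0 h and 37 in 1 library at 120 h, and Dazl +20095 had a peak in 1 library at 0 h and 1 at 48 h.

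Dazl had the widest range of timepoint means among the start regions on the centred scale, and its course was used to look for similar starts. Of 8970 other start regions, 357 had a Pearson r over 0.9 with Dazl over the 8 libraries, which share their library-wide shifts in height after centring only in part. The 5 highest were the start shared by Zcchc2 and Gm7160 (r = 0.985), Ttc4 (r = 0.984), Morf4l1, Rnaset2b and Srsf3 (r = 0.981 for each). At Morf4l1 the heights were 458 and 688 (0 h), then 296 and 373 (18 h) and 200 and 317 (48 h), and lastly 669 and 628 (120 h).

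Boll, the meiotic member of the DAZ family, had 1 region with a peak in all libraries, at chr1:55362140-55364035, which RefSeq crosses with a pair of Boll starts. The outer start lies at -284 bp and the inner one at 741 bp from the start used in the table. The stretches before each are shown because the highest summit lay near different ones in different libraries, with the outer stretch taken before the outermost RefSeq exon and CpG in capitals.
Boll outer (chr1:55363790-55364039, minus strand, GRCm38.p6): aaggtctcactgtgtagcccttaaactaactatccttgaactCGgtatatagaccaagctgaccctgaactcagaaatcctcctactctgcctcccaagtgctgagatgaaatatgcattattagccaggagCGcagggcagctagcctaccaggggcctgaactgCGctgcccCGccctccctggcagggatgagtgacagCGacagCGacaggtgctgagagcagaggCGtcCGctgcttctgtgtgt
Boll inner (chr1:55362729-55362978, minus strand, GRCm38.p6): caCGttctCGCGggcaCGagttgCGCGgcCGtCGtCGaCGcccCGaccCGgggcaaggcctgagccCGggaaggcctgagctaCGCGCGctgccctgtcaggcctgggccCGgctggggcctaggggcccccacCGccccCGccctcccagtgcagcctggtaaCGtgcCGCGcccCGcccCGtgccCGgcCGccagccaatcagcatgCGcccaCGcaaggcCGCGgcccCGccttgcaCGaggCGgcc
The inner stretch holds 33 CpG at a GC content of 78%, with 3 GC boxes (GGGCGG on either strand) and 1 CCAAT box, and the outer one holds 8 CpG at 55.2% GC, with 1 GC box. GC boxes are found in 32.7% of windows before RefSeq starts. In both 0 h libraries the highest summit lay at 589 bp, inside the inner stretch, and in the 120 h libraries it lay at -371 bp, inside the outer stretch, and at -211 bp. The 18 h and 48 h libraries were divided, with the highest summit at -371 and 685 bp at 18 h and at 557 and -307 bp at 48 h. Separate summits near both starts were called in replicate 1 at 18 h, with heights of 83 at -371 bp and 76 at 1069 bp, and in replicate 1 at 48 h, with 87 at -211 bp and 106 at 557 bp. A gap of at least 500 bp between the 0 h and the 120 h summits, with no overlap between the libraries, was found in 0.476% of those 15536 regions and in 1.51% of the 4761 that are at least 1000 bp wide. This gap was chosen after the Boll summits were seen, and it was met by 2 of the 11 member regions, Boll and Celf1. Boll heights were 210 and 261 (0 h), then 83 and 129 (18 h) and 106 and 90 (48 h), and lastly 160 and 151 (120 h). All later libraries lay below both 0 h libraries, and the 120 h libraries lay above those at 18 h and 48 h. These heights are the highest summit anywhere in the region, so the changes below compare summits at different positions and do not follow 1 site. Boll was lower at 18 h (log2 change -1.18, adjusted p = 0.00264, limma) and at 48 h (-1.26, adjusted p = 0.00112), while the change at 120 h was -0.59 (SE 0.37, adjusted p = 0.184). On the centred scale that change was 0.30 (SE 0.24, adjusted p = 0.337). A peak far inside the gene, Boll +57293, was found in 1 library at 0 h with a summit of 51.

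**Figure D4:**
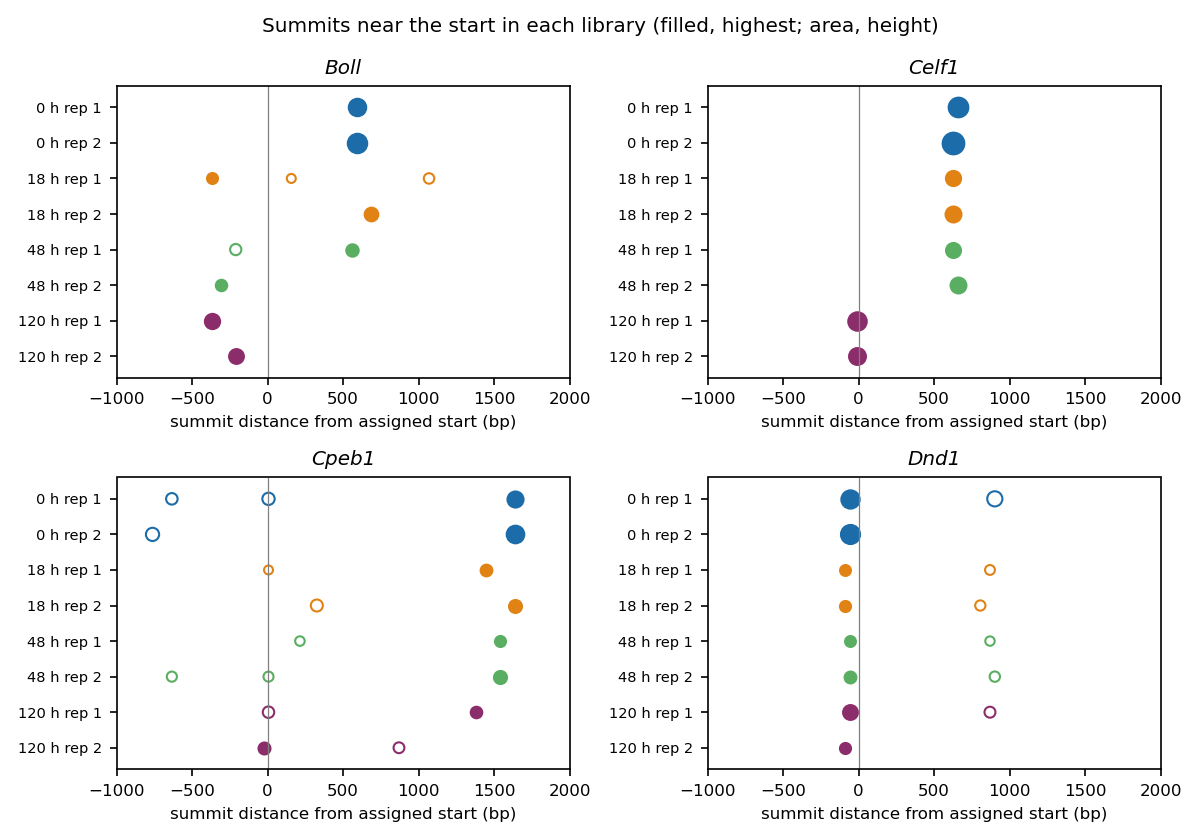
Distance of each nearby summit from the start used in the table (x axis, bp) in each library (rows) at Boll, Celf1, Cpeb1 and Dnd1, with the highest summit of a library filled and circle area in proportion to height. The Celf1 summit sits at 627 or 659 bp in the 6 libraries up to 48 h and at -13 bp in both 120 h libraries, and the Boll summit sits at 589 bp at 0 h and upstream of 0 at 120 h.

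Lin28b, which blocks let-7 maturation, was the gene with no start region by the table, and its 5 regions lay between -3655 and 84073 bp of the start used there. RefSeq has a further start 16 kb upstream of that one, at position 45486314 against 45470201 of chromosome 10, and a region that the table assigns to no gene covers it. The stretches before both starts are shown with CpG in capitals, because they differ in CpG and in peaks. For the start used in the table, the stretch was taken before the outermost RefSeq exon, at -144 bp from that start.
Lin28b start used in the table (chr10:45470346-45470595, minus strand, GRCm38.p6): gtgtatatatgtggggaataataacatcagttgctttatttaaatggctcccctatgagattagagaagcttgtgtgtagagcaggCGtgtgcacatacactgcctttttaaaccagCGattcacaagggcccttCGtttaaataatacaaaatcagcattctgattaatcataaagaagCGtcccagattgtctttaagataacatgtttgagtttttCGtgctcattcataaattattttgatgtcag
Lin28b outer start (chr10:45486315-45486564, minus strand, GRCm38.p6): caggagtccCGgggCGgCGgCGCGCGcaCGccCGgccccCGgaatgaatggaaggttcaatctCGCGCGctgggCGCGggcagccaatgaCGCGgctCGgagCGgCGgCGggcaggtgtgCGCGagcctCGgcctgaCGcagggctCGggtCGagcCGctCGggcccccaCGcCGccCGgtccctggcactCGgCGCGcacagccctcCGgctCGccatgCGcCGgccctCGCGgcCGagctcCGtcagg
The first holds 5 CpG and had no peak in any library, and the second holds 42 CpG, 2 GC boxes and 1 CCAAT box and had a peak in all 8. The 250 bases directly before the start used in the table, which overlap the first stretch, hold 6 CpG and also 1 CCAAT box. The region over the outer start, chr10:45485613-45487059, had heights of 290 and 392 (0 h), then 106 and 183 (18 h) and 135 and 135 (48 h), and lastly 262 and 186 (120 h). It is not among the 38 regions, since the table does not name Lin28b there, and it was examined after the peaks around the gene were seen. It was lower at 18 h (log2 change -1.28, SE 0.37, adjusted p = 0.00136, limma) and at 48 h (-1.32, adjusted p = 0.000694), and relative to the median region the change at 120 h was 0.28 (SE 0.22, adjusted p = 0.315). Of the regions assigned to Lin28b, Lin28b +19401 had summits of 67 and 63 at 0 h and Lin28b +84073 of 64 and 66, both in introns, and neither had a later peak. Lin28b -3111 had 57 and 79 at 0 h and peaks of 35 at 18 h and 39 at 48 h in 1 library each. The intronic region Lin28b +2233, with 74 and 41 at 120 h and no earlier peak, was 1 of the 2 regions seen at 120 h alone, and its summit is shown with 75 bases on each side and any matched motif in capitals.
Lin28b +2233 (chr10:45467893-45468043, minus strand, GRCm38.p6): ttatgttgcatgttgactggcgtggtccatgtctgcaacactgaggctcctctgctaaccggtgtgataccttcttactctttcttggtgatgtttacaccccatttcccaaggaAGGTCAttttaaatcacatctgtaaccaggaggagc
The capitals mark AGGTCA, the hexamer that nuclear receptors bind, which 8.15% of 87144 region summits of this width contain on either strand. The window has 2 CpG, beside a median of 1 at the summits of the 1526 regions seen at 120 h alone and of 3 at all region summits. With a minimum summit of 50 the region is no longer counted, as 1 of its summits is 41.

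Pum2, a PUMILIO protein that represses transcripts through sites in their 3' ends, had its start region at chr12:8673769-8674878, with the highest summit at 10 bp in 4 libraries and between -118 and -22 bp in the other 4. Heights were 219 and 416 (0 h), then 77 and 146 (18 h) and 128 and 143 (48 h), and lastly 293 and 244 (120 h). The 18 h and 48 h libraries all lay below those at 0 h and 120 h, which overlapped. Pum2 was lower at 18 h by the limma fit (log2 change -1.51, SE 0.37, adjusted p = 0.000271) and at 48 h (-1.16, adjusted p = 0.00256). It rose from 48 h to 120 h by 0.98 on the log2 scale, or 1.98-fold (adjusted p = 0.0395, limma; 0.0621 with the replicate block), and the change from 0 h to 120 h was -0.17 as deposited (adjusted p = 0.721). Relative to the median region it was higher at 120 h than at 0 h by 0.72 (SE 0.26, adjusted p = 0.0449, limma), with an adjusted p of 0.338 without replicate 1 at 0 h. The 0 h libraries differ most here of all groups, and without replicate 2 at 0 h the uncentred change was 0.29. Within the first intron, Pum2 +1322 had summits of 102 and 92 at 120 h and none earlier, and it is shown in the same way as the Lin28b region.
Pum2 +1322 (chr12:8675381-8675531, plus strand, GRCm38.p6): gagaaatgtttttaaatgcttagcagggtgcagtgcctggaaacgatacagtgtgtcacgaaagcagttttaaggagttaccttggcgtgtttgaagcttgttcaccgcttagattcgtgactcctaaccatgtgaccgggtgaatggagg
No letters of the searched motifs other than CpG are in this window, so it holds no capitals. The start region of the same gene was higher from 48 h to 120 h as deposited. On the centred scale that change was 0.48 (adjusted p = 0.196, limma), and a link between these regions was not tested. A region with peaks in both 120 h libraries and in no other made up 1.36% of accessible regions. The other Pum2 regions, at -3030, 81066 and 87210 bp, had peaks in 1 to 4 libraries and were accessible at no timepoint.

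Dnd1, whose protein guards germ cell survival and acts on transcripts with NANOS2, had a start region at chr18:36765094-36766584 and a second one, Dnd1 +6022, at the start of Wdr55. At the Dnd1 start the heights were 231 and 252 (0 h), then 82 and 85 (18 h) and 82 and 97 (48 h), and lastly 152 and 85 (120 h). At the Wdr55 start they were 190 and 258 (0 h), then 81 and 102 (18 h) and 82 and 108 (48 h), and lastly 158 and 91 (120 h). In both regions all later libraries lay below both 0 h libraries, and replicate 1 at 120 h lay above replicate 2. The Dnd1 start was lower at 18 h (log2 change -1.53, SE 0.37, adjusted p = 0.000234, limma), at 48 h (-1.44, adjusted p = 0.00027) and at 120 h (-1.09, adjusted p = 0.0105). The Wdr55 start was lower at 120 h by 0.88 on the log2 scale, a change of -0.88 with an adjusted p of 0.0398 by limma. That call was lost with the replicate block (adjusted p = 0.0579, limma) and without any 1 of 5 libraries, where the change was -0.49 without replicate 2 at 120 h (adjusted p = 0.389). The Dnd1 start call at 120 h was lost without replicate 2 at 0 h or at 120 h (adjusted p up to 0.203, limma). Relative to the median region neither passed the threshold, with -0.20 (SE 0.20, adjusted p = 0.46) for Dnd1 and 0.01 (SE 0.20, adjusted p = 0.983) for Wdr55 at 120 h. Summits near the Dnd1 start lay at -58 or -90 bp in all 8 libraries. A further summit at 806 to 902 bp was called in 6 libraries, while replicate 2 at 0 h had 1 peak of 1440 bp over the whole stretch and replicate 2 at 120 h had none there.

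Cpeb1, which binds cytoplasmic polyadenylation elements and switches stored transcripts on, had the most peaks of the 9 genes, with 7 and 8 (0 h), then 4 and 4 (18 h) and 3 and 5 (48 h), and lastly 3 and 3 (120 h). Its start region at chr7:81452938-81455618 had heights of 178 and 214 (0 h), then 95 and 116 (18 h) and 84 and 118 (48 h), and lastly 92 and 99 (120 h). Unlike the Dazl start, it had no 120 h library above those of 18 h and 48 h. It was lower at 18 h (log2 change -0.89, SE 0.37, adjusted p = 0.0188, limma), at 48 h (-0.97, adjusted p = 0.0105) and at 120 h (-1.03, adjusted p = 0.0153). Relative to the median region the change at 120 h was -0.14 (SE 0.24, adjusted p = 0.662), and it was 0.36 at 18 h (adjusted p = 0.568) and 0.42 at 48 h (adjusted p = 0.376). Up to 48 h its highest summit lay at 1446 to 1638 bp in each library. At 120 h each library had 2 summits there, with 92 at 1382 bp and 91 at 6 bp in replicate 1, and 99 at -26 bp and 81 at 870 bp in replicate 2. The height of replicate 2 at 120 h was thus taken at -26 bp, so the 120 h changes do not follow 1 site. A further 3 regions of 0 h had no later peak, namely Cpeb1 +62694 with 97 and 74, Cpeb1 +49894 with 56 and 53, both intronic, and Cpeb1 -9562 with 58 and 45.

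Ythdc2, an RNA helicase with a YTH domain that germ cells need to enter meiosis, had its start region at chr18:44828267-44829277. Heights were 129 and 131 (0 h), then 48 and 63 (18 h) and 69 and 76 (48 h), and lastly 139 and 121 (120 h). The libraries of 0 h and 120 h overlapped and lay above all those of 18 h and 48 h. As deposited it was lower at 18 h (log2 change -1.24, SE 0.37, adjusted p = 0.00171, limma) and at 48 h (-0.84, adjusted p = 0.0255), with no change that passed at 120 h (0.00 after rounding, adjusted p = 0.995). Relative to the median region it was higher at 120 h by 0.89 (SE 0.21, adjusted p = 0.00715, limma), or 1.85-fold, with an adjusted p of 0.0729 without replicate 2 at 120 h. The summit lay at 7 and -57 bp at 0 h and at 199 to 295 bp in all later libraries. A region upstream, Ythdc2 -5273, had 76 and 62 at 0 h and no later peak, and Ythdc2 +50439 had a peak of 40 in 1 library at 0 h.

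Elavl1, the ubiquitous ELAV protein that stabilizes AU-rich transcripts, had exactly 2 peaks in every library. Its start region at chr8:4324584-4325679, which also holds the start of Ccl25, had heights of 361 and 657 (0 h), then 205 and 248 (18 h) and 181 and 237 (48 h), and lastly 411 and 403 (120 h). The second peak, Elavl1 +49164, lies at the start of Timm44 and had 371 and 472 (0 h), then 111 and 151 (18 h) and 108 and 128 (48 h), and lastly 187 and 129 (120 h). At 0 h the values of the regions overlapped, and at each of 18, 48 and 120 h both Elavl1 start values lay above both Timm44 values. The Elavl1 start was lower at 18 h (log2 change -1.11, SE 0.37, adjusted p = 0.00423, limma) and at 48 h (-1.23, adjusted p = 0.0014), and higher from 48 h to 120 h by 0.97 (adjusted p = 0.0412, or 0.0644 with the replicate block). Its change from 0 h to 120 h was -0.26 as deposited (adjusted p = 0.587) and 0.63 on the centred scale (SE 0.25, adjusted p = 0.0615). The Timm44 start was lower at 120 h than at 0 h on both scales, with -1.43 as deposited (SE 0.37, adjusted p = 0.000639) and -0.54 centred (SE 0.19, adjusted p = 0.0396), both by limma. Without 1 library the latter adjusted p ranged from 0.0531 to 0.144. The difference between the changes of the 2 regions was not tested.

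Celf1, which binds GU-rich elements in splicing and transcript decay, had its start region at chr2:90939985-90941360. The highest summit lay at 659 and 627 bp at 0 h, 627 and 627 bp at 18 h, and 627 and 659 bp at 48 h, and at -13 bp in both 120 h libraries, a gap of 640 bp. The intronic stretch under the summit at 627 bp is shown, with CpG in capitals, because it carried the highest summit in all libraries up to 48 h.
Celf1 +627 (chr2:90940949-90941099, plus strand, GRCm38.p6): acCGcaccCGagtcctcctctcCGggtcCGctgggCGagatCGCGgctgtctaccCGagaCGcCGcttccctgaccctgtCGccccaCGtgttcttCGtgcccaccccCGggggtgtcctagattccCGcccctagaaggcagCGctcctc
It holds 16 CpG at a GC content of 69.5%, with 1 GC box and 1 E box (CACGTG, which overlaps a CpG and is found at 4.25% of region summits), and the window of the same width at the 120 h summit holds 28 CpG at 84.8%. At Boll the order was the other way round, with 18 CpG at the 0 h summit and 9 and 13 at the 120 h summits. Heights of Celf1 were 267 and 325 (0 h), then 159 and 175 (18 h) and 155 and 174 (48 h), and lastly 236 and 197 (120 h). All later libraries lay below both 0 h libraries. The 120 h heights belong to the summit at -13 bp and the others to that at 627 or 659 bp. The 120 h changes therefore do not follow 1 site. Celf1 was lower at 18 h (log2 change -0.82, SE 0.37, adjusted p = 0.0305, limma) and at 48 h (-0.84, adjusted p = 0.0256), with -0.45 at 120 h (adjusted p = 0.321) and a centred change of 0.44 there (SE 0.21, adjusted p = 0.106).

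Celf1 also held the 3 regions accessible at 2 or 3 timepoints. Celf1 +78227, near the end of the gene and partly in UTR sequence by GENCODE, had 232 and 193 (0 h), then 49 and 94 (18 h) and 68 and 92 (48 h), and no peak at 120 h. At 0 h it was the highest of the 27 regions without a CpG island. Loss of a peak by 120 h alone was seen in 5.76% of accessible regions. Celf1 +10483 had 54 and 60 (0 h), then 29 and 48 (18 h), a single 40 (48 h), and lastly 39 and 41 (120 h), and it lies in an intron. Celf1 +41971 had 82 and 85 (0 h), then a single 46 (18 h), 38 and 60 (48 h), and no peak at 120 h.

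The number of peaks per gene was compared between the 2 libraries at 0 h and the 6 later ones with an exact permutation test, two-sided, whose smallest p in this design is 0.0714. Both 0 h counts lay above all later counts in 3 of 9 genes, Lin28b, Cpeb1 and Ythdc2, against 36.9% of all genes with a peak, a share near the background. For Lin28b the 0 h counts were 3 and 4, every later count was 0 or 1, and the means differed by 2.83. Cpeb1 differed by 3.83 and Ythdc2, which had 2 and 3 before RA and 1 ever after, by 1.5. Each of the 3 had the smallest p of 0.0714 in the exact permutation test and an adjusted p of 0.193 over all genes. Dazl had 2 and 3 at 0 h and 1 or 2 later, and Celf1 5 and 5 at 0 h and 2 to 5 later. The counts of Boll, Pum2 and Elavl1 had the same mean at 0 h and later, and Dnd1 had 2 or 3 in every library. A region can hold several peaks of 1 library, so these are not counts of open regions. The 3 Boll peaks of replicate 1 at 18 h all lay in its start region. At the Dnd1 start, replicate 2 at 0 h had 1 peak of 1440 bp where other libraries had separate peaks. When the same number of highest peaks, 24643, was kept from each library, none of the 9 genes and no region was particular to 0 h, while 36.9% refers to the table as deposited. That step removes the most peaks from the 0 h libraries, the lowest first, so it cannot decide whether 0 h had more.

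**Figure D5:**
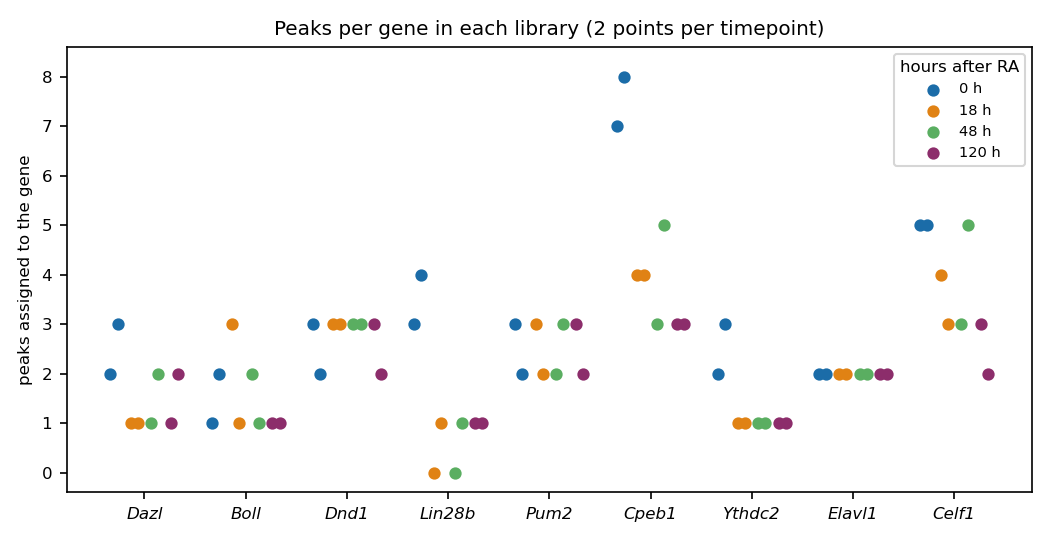
Number of peaks assigned to each of the 9 genes (y axis) in each library, with 2 points for each of the 4 timepoints in colour. Cpeb1 has 7 and 8 peaks at 0 h and 3 to 5 later, and Elavl1 has 2 in all 8 libraries.

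A wider list of 57 RNA-binding protein genes in translational control, deadenylation, m6A and meiotic entry, the ELAV and CELF families, and germ cell splicing was read in the same fits. A peak was assigned to 55 of them, with none by symbol for Cnot9 and Meioc. Accessibility at all 4 timepoints was seen in 53, against 72.8% of genes accessible at any timepoint. Both 0 h peak counts lay above all later counts in 16 of the 55, against 36.9% of all genes with a peak. Start regions with a peak in all 8 libraries numbered 41, from 40 genes. As deposited, 38 of the 41 were lower at 18 h and 38 at 48 h, close to the shares in all regions, and 5 were lower at 120 h, against 44.8% of all regions, with 0 higher. The median log2 change at 120 h was -0.53 for CpG island start regions and -0.75 for all regions, so all regions are not a like background. Relative to the median region, 22 of 41 were higher at 120 h than at 0 h and 1 was lower, against 3 higher and 1 lower among the 11 regions of the 9 genes. Those 11 include 3 starts of neighbours, and the lower one, Timm44, is among these. The 3 higher ones are among the 8 start regions of the genes themselves. Of all regions 23% were higher and 15.8% lower on this scale, and of the CpG island start regions 31.9% and 5.88%. The largest rise was at Cpeb2, a paralog of Cpeb1, with 89 and 163 (0 h), then 51 and 73 (18 h) and 88 and 63 (48 h), and lastly 195 and 182 (120 h). Its centred change was 1.54 (SE 0.28, adjusted p = 0.0018, limma), whereas that of Cpeb1 was -0.14. The m6A reader genes Ythdf1 and Ythdc1 followed with 1.12 (adjusted p = 0.00203) and 1.00 (adjusted p = 0.00274). Celf6 was the 1 region that was lower, with a centred change of -0.63 (SE 0.20, adjusted p = 0.0276, limma). By list, the rises on the centred scale, to be read beside those shares, were 8 of 14 in translational control, 5 of 9 in deadenylation, 5 of 10 in m6A and meiotic entry, 1 of 3 in the ELAV and CELF families and 3 of 5 in germ cell splicing, and as deposited no list had a region that was higher.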

How the data were processed

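ATAC-seq was performed on 8 libraries of sorted PIWIL2-eGFP cells, 2 per timepoint. The authors aligned reads to mm10 with BWA 0.7.12, removed duplicates, brought all libraries to one tag number and called peaks per library with MACS2 2.1.0 without a control. They compared regions with DESeq2 on read counts, which were not used here. They deposited the coverage signal at each summit, the mean signal of each peak, CpG island counts and the genes within 10 kb.

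The 9 genes, the wider lists and the tests were chosen with earlier results of these data known. Peaks that shared 1 bp or more across libraries formed 1 region. The highest summit of a library was its height in a region, wherever in the region it lay. Log2 heights of the 15536 regions with all 8 values were fitted over the 4 timepoints without a block by limma 3.58.1 (R 4.3.3) and adjusted by Benjamini-Hochberg, where an adjusted p below 0.05 passed, as deposited and after centring on library medians. The steps were tested on simulated data. The other 27 regions of the 9 genes lack a height in at least 1 library and were described by their peaks. Of the 38 regions, 2 are included in the counts and are not reported by themselves here. Peak numbers per gene were compared with exact permutation tests in Python 3.11.15. Of the wider lists, the 3 largest rises and falls at 120 h past the threshold on the centred scale were named, where 1 fall passed. P-values rest on the spread between the 2 mice of each timepoint, pooled over timepoints and, as deposited, also over all regions.

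Sequences are from RefSeq for GRCm38.p6, the assembly of mm10. Promoter sequences matched 7 of the 9 genes, and Dnd1 and Ythdc2 are named only. Exons and introns are from GENCODE for the same assembly. Motifs searched on both strands were the CCAAT box (CCAAT), the GC box (GGGCGG), the E box (CACGTG), the nuclear receptor hexamer (AGGTCA), the STRA8 motif (CNCCTCAG) and the NRF1 core of 10 letters, of which the GC box, the E box and the NRF1 core contain CpG. The alternatives, namely other scalings, filters, blocks and left-out libraries, are given in the closing section. Those with centring and 1 library left out were added after the data were seen.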

Additional observations from a re-analysis of the deposited data

How the results depend on the processing

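Calls as deposited depended on the scaling of libraries, and the cause of the shift shared by all regions was not tested. With median centring, the lower regions of the 11 numbered 0 at both 18 h and 48 h, 1 was lower and 3 were higher at 120 h, and 0 were higher from 48 h to 120 h. With centring and a replicate block these counts were 0, 0, 1, 4 and 1, and with quantile normalization 0, 0, 1, 1 and 0. The labels do not say whether the replicate numbers pair the libraries. The correlations of same-numbered deviations between timepoints ranged from -0.22 to 0.25, which cannot decide it. With the replicate block alone, the regions higher from 48 h to 120 h fell to 1, as they did with only the libraries compared. The block ended the calls of Wdr55 at 120 h (adjusted p = 0.0579, limma) and of Pum2 and Elavl1 from 48 h to 120 h (0.0621 and 0.0644). With a missing peak set to the lowest summit, 25 regions could be fitted. Of these, 21, 21 and 14 were lower at 18, 48 and 120 h, 2 were higher at 120 h and 1 was higher from 48 h to 120 h. These calls follow in part from the set value, as 9 of the 25 were accessible at 0 h alone and 2 at 120 h alone. No share of all regions is given for this setting, so these counts cannot be read as a result about the 9 genes. An equal number of highest peaks left 0 regions and 0 genes with more at 0 h, and a summit of at least 50 left 1 region at 120 h alone.

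Leaving out 1 library gave 4 to 11 lower regions at 18 h, 5 to 11 at 48 h and 1 to 4 at 120 h, and 0 to 5 higher from 48 h to 120 h. On the centred scale it gave 0 lower and 0 to 4 higher at 120 h, and 0 to 1 higher from 48 h to 120 h.

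Directions turned in these regions, with the centred log2 change (the same with a block) before the quantile-normalized one. At 18 h they were Dazl 0.53 and 0.52, Boll 0.081 and 0.089, Cpeb1 0.36 and 0.40, Elavl1 0.15 and 0.14, Celf1 0.44 and 0.48, and Ythdc2 0.018 by centring alone. At 48 h they were Dazl 0.26 and 0.31, Boll 0.13 and 0.15, Wdr55 0.16 and 0.18, Pum2 0.24 and 0.29, Cpeb1 0.42 and 0.46, Ythdc2 0.55 and 0.47, Elavl1 0.16 and 0.20, and Celf1 0.55 and 0.62. At 120 h they were Boll 0.30 and 0.24, Wdr55 0.0059 and 0.059, Pum2 0.72 and 0.47, Ythdc2 0.89 and 0.87, Elavl1 0.63 and 0.21, and Celf1 0.44 and 0.25. From 48 h to 120 h they were Wdr55 -0.15 and -0.12, Dnd1 -0.15 and -0.089, Timm44 -0.10 and -0.21, and Celf1 -0.11 and -0.38. With the mean signal of the peak, Dazl at 120 h was -0.12 and Cpeb1 from 48 h to 120 h was 0.013.

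Without 1 library the change at 120 h ranged from -0.30 to 0.47 at Dazl, -0.64 to 0.29 at Pum2, -0.10 to 0.10 at Ythdc2 and -0.69 to 0.17 at Elavl1. From 48 h to 120 h it ranged from -0.048 to 0.75 at Wdr55, -0.069 to 0.77 at Dnd1 and -0.31 to 0.18 at Cpeb1. The difference in peak number between 0 h and later libraries ranged from -0.83 to 0.17 for Dnd1. With an equal number of highest peaks it was -0.17 for Dazl, -0.33 for Lin28b, -1 for Cpeb1 and -0.5 for Celf1. Keeping an equal number removes the most peaks from the 0 h libraries, the lowest first. This setting therefore cannot decide whether 0 h had more peaks, and heights below the calling limit are unknown.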
